A study of Mus musculus with 52 samples.

Results

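The amygdala was compared with the frontal cortex of young mice, 30 days after birth (P30), by RNA sequencing of bulk tissue. The comparison used 16 of the 52 libraries of the series, all those labelled amygdala or frontal cortex at that age: 4 amygdala libraries from mice lacking Mir146 (KO), 4 from wild-type mice (WT), 4 frontal cortex libraries from KO mice and 4 from WT mice. The region difference was estimated with genotype as a covariate, so that the effect of the knockout itself was set aside. The study as a whole addressed the microRNA miR-146a in mouse brain development, and also sampled the hippocampus at P30, the same 3 regions 60 days after birth (P60), and the embryonic neocortex. The 14 amygdala and frontal cortex libraries at P60 (4 KO and 3 WT of each region) came from other animals and served as a check. The series' design text states that each region was sampled from mice born to different mothers. A p-value here takes all libraries as independent and measures the spread between libraries of the same region and genotype. Same-numbered amygdala and frontal cortex libraries may come from the same mouse, and the main fits did not include such pairing.

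The gene deleted in the KO mice encodes a microRNA whose mature product is shown here because it defines the genotypes that both regions share, with its seed (bases 2 to 8, counted from the 5′ end) in capitals. The sequence is from RefSeq (GRCm38.p6, chr11:43374435-43374456, minus strand).
mmu-miR-146a-5p: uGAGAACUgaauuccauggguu
The precursor gene Mir146 had 0 normalised counts in all 16 libraries, KO and WT alike, so these libraries cannot check the genotype labels.

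The amygdala is a group of nuclei below the cortex. Its basolateral nuclei hold glutamatergic neurons that resemble cortical ones. Its central and medial nuclei hold many GABAergic neurons, and neurons there signal with neuropeptides and respond to steroid hormones. The frontal cortex is a layered sheet in which glutamatergic projection neurons are mixed with several classes of GABAergic interneurons, and in which many upper-layer neurons send axons to the opposite hemisphere. In bulk tissue, fewer cells of a type and less RNA per cell cannot be told apart, and this holds for every gene described.

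The deposited values are read counts scaled to a common library size, called normalised counts, and are not divided by gene length, so levels are compared between libraries and not between genes. The 16 libraries held 4870435 to 8141105 gene reads. Defining markers followed the labels in part. Cux2, a homeobox gene of upper cortical layers, was lower in every amygdala library than in every frontal cortex library. Esr1, Lhx9 and Dlk1, which mark medial and central amygdala, had higher medians in the amygdala, whereas Rspo2, a marker of the basolateral nuclei, ranged from 5.34 to 28.3 normalised counts in amygdala libraries (median 8.23) and 6.72 to 16.5 in frontal cortex libraries (median 9.73). The glutamate transporter gene Slc17a7, present in both regions, ranged from 455 to 662 normalised counts in amygdala libraries (median 556) and 570.3 to 675 in frontal cortex libraries (median 646). Among 17 hypothalamic markers, Trh alone had enough reads to be tested, and the hypothalamic peptide gene Oxt stayed at or below 0.48 normalised counts in all 16 libraries.

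Some libraries stood apart from the others of their region. On the leading axis of variation, which carried 50.9% of the variance, 7 amygdala libraries lay between 18.2 and 38.9, the 8 frontal cortex libraries between -35.4 and -20.1, and WT amygdala replicate 3 at 1.11. WT amygdala replicate 3 was the amygdala library nearest to the frontal cortex for 229 of the 352 genes more than 2-fold higher in the amygdala, and for 207 of the 362 genes more than 2-fold lower. Its summed myelin markers (15 genes) came to 7316 normalised counts, against 1524 to 2829 in the other 7 amygdala libraries and 5035 to 8184 in the frontal cortex. Its Robo3 count lay among those of the other amygdala libraries. Fold changes without this library are given beside genes whose overlap between the regions it set.

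**Figure D1:**
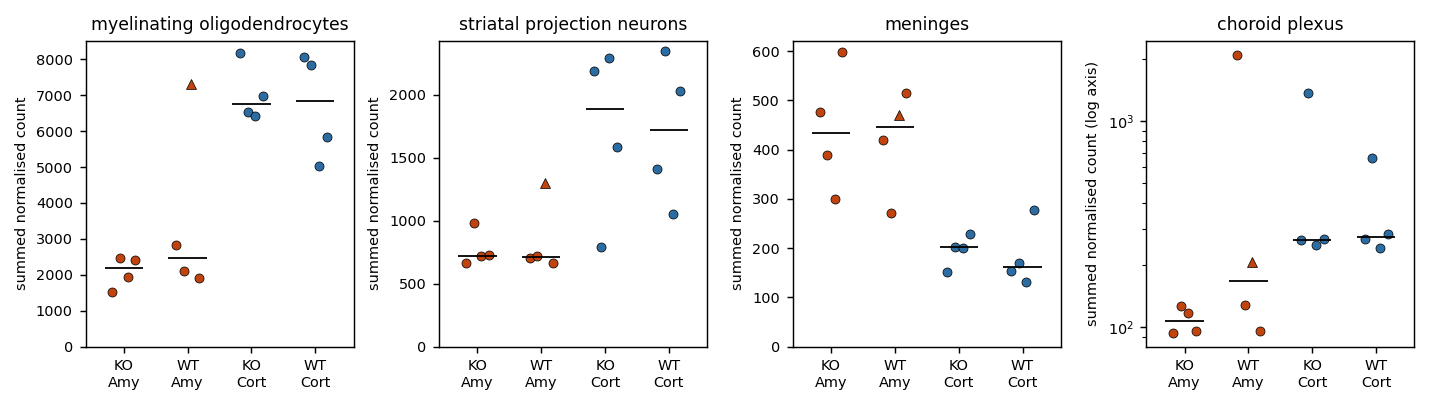
Summed normalised counts of 4 marker lists in each library at P30, in KO and WT amygdala (Amy) and KO and WT frontal cortex (Cort); points are libraries, bars are group medians, and the triangle is WT amygdala replicate 3. The choroid plexus panel has a log axis. Myelin markers were at 7316 in the triangle and at 2829 or less in the other amygdala libraries, and striatal markers spread from 790 to 2344 among the frontal cortex libraries.

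The frontal cortex libraries varied in markers of striatal projection neurons, the principal cells of the underlying striatum. The summed level of 19 such genes ranged from 667 to 1298 normalised counts in the amygdala, and from 790 to 2344 in the frontal cortex. Choroid plexus markers, which come from tissue lining the ventricles, were high in 3 libraries: 2110 in WT amygdala replicate 1, 1377 in KO frontal cortex replicate 2 and 666 in WT frontal cortex replicate 2, against 94.1 to 285 in the other 13. Meningeal markers (12 genes) summed to 272 to 598 in the amygdala, against 130 to 277 in the frontal cortex.

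Expression differed between the regions in a large share of the genes. Of 17378 genes tested with limma on log2(normalised count + 1), 7349 passed an adjusted p of 0.05 (42.3%), 4594 higher in the amygdala (26.4%) and 2755 lower (15.9%). Most differences were small: 6635 of the 7349 were under 2-fold, 352 genes were over 2-fold higher in the amygdala (2.03%) and 362 over 2-fold lower (2.08%). The balance of higher and lower calls depended on scaling, since 62.5% of the calls were higher in the amygdala with the deposited values and 49.1% after trimmed mean scaling, which moved the median log2 fold change of all genes to 0.01, against 0.06 with the deposited values. Every amygdala library exceeded every frontal cortex library for 1069 genes (6.15%), and every amygdala library was below every frontal cortex library for 850 (4.89%). Without WT amygdala replicate 3, 8145 of 17578 genes passed (46.3%).

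The region difference was not shown to depend on the Mir146 genotype. No gene passed an adjusted p of 0.05 for the interaction of region and genotype with limma (0 of 17378), 951 genes had an unadjusted p under 0.05 (5.47%), and limma-voom on the recovered reads likewise gave 0 genes, with 909 at an unadjusted p under 0.05 (5.23%).

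The genes furthest below the frontal cortex were named by a rule: among genes that passed, averaged at least 5 normalised counts and did not overlap between the 8 and 8 libraries, the 12 with the largest fold change in each direction. Among the 757 such lower genes, Scn4b came first, a gene for an auxiliary subunit of voltage-gated sodium channels that is also known from striatal neurons. Scn4b ranged from 0.92 to 31.5 normalised counts in amygdala libraries (median 1.37) and 36.6 to 125 in frontal cortex libraries (median 82.7) (log2 fold change -4.33, SE 0.59, adjusted p 5.77e-05). The amygdala maximum was WT replicate 3; the other 7 amygdala libraries were at 11.1 or less, the log2 fold change without replicate 3 was -4.79, and the lowest frontal cortex value was in KO replicate 2, the library with the lowest summed striatal markers.

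Robo3, a receptor of the Robo family that guides axons across the midline, was also lower. It ranged from 4.63 to 8.35 normalised counts in amygdala libraries (median 5.47) and 61.2 to 93.2 in frontal cortex libraries (median 65) (log2 fold change -3.42, SE 0.10, adjusted p 2.54e-15). The groups stood wide apart, and WT amygdala replicate 3, at 7.06, lay within the amygdala range. Cpne9, a calcium-dependent phospholipid-binding copine, had a lowest, median and highest value of 4.49, 7.78 and 12.3 normalised counts in the amygdala, against 63.2, 78.8 and 105 in the frontal cortex (log2 fold change -3.25, SE 0.17, adjusted p 1.23e-09). Other lower genes were Xirp2, an actin-binding protein known from muscle (-3.07), Hkdc1, of the hexokinase family (-2.90), Hr, a nuclear receptor corepressor (-2.71), the myosin light chain gene Myl4 (-2.47), the synaptic calcium sensor gene Syt2 (-2.25), the matrix protein gene Npnt (-2.19) and the immunoglobulin heavy chain gene Ighm (-2.18, all log2 fold changes). For Xirp2, Hr, Syt2, Npnt and Ighm the amygdala library nearest the frontal cortex was again WT replicate 3, and all 12 genes passed without it.

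Among the 974 genes higher in the amygdala by the same rule, a non-coding RNA and a copine led. Gm35842, a long non-coding RNA gene, had between 4.3 and 24.7 normalised counts in the amygdala (median 18.5), against 0.52 to 2.32 in the frontal cortex (median 1.29) (log2 fold change 2.88, SE 0.30, adjusted p 1.91e-06). Cpne7, another copine, had a lowest, median and highest value of 39.1, 137 and 230.2 normalised counts in the amygdala, against 11.9, 15 and 25.5 in the frontal cortex (log2 fold change 2.81, SE 0.34, adjusted p 1.85e-05). In both, WT amygdala replicate 3 was the lowest amygdala library and still exceeded all frontal cortex libraries.

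Nr2f2 encodes COUP-TFII, an orphan nuclear receptor that marks caudally derived GABAergic and amygdala neurons. It ranged from 43.7 to 187 normalised counts in amygdala libraries (median 154) and 13.3 to 30.8 in frontal cortex libraries (median 20.4) (log2 fold change 2.56, SE 0.29, adjusted p 8.47e-06). The 7 amygdala libraries other than WT replicate 3 were at 104 or more, and the log2 fold change without that library was 2.79. The related gene Nr2f1, which falls outside the rule and was looked up after the values of Nr2f2 were seen, differed far less (between 84.2 and 127 normalised counts in the amygdala (median 125), against 77 to 108 in the frontal cortex (median 91.6); log2 fold change 0.33, adjusted p 0.00415 in limma).

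The other higher genes were Baiap3, a Munc13 relative of dense-core vesicle traffic (2.76), Hap1, which binds huntingtin (2.57), Lypd1, a modulator of nicotinic receptors (2.48), the cell polarity gene Crb1 (2.46), the imprinted proteolipid gene Nnat (2.45), Plcz1, a phospholipase C known from sperm (2.40), Calb2, encoding calretinin (2.37), Nkain3 (2.37) and the GTPase-activating protein gene Arhgap6 (2.36, all log2 fold changes). Nnat had a lowest, median and highest value of 88.1, 298 and 407 normalised counts in the amygdala, against 30.6, 48.6 and 77.8 in the frontal cortex. Replicate 3 of the WT amygdala held the lowest amygdala value without reaching the frontal cortex. The adjusted p of the 24 genes lay between 2.54e-15 and 0.000357 in limma, and all 24 passed in the same direction at P60 with no overlap between the regions. Of all genes tested at P60, 8.38% did not overlap as higher and 4.69% as lower, whether or not they passed. The 24 were chosen for large P30 differences. Of P30 genes over 2-fold higher and lower that could be tested at P60, 98.8% and 96.5% passed in the same direction. Of these 24 genes, 14 overlap an annotated gene on the opposite strand, among them Plcz1, Baiap3, Nnat and Syt2, and their reads may include those of the partner.

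**Figure D2:**
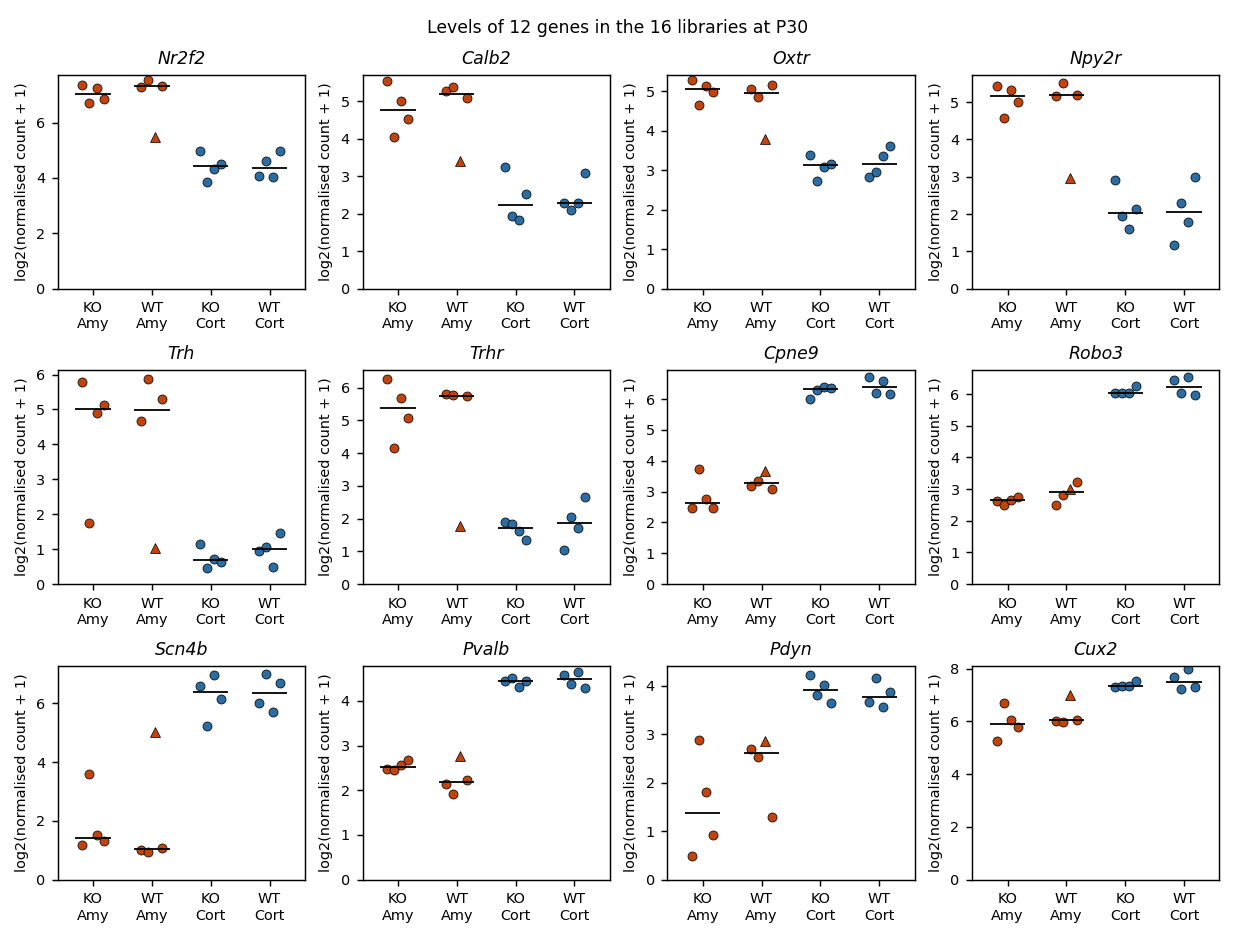
Levels of 12 genes as log2(normalised count + 1) in the 16 libraries at P30, in KO and WT amygdala (Amy) and KO and WT frontal cortex (Cort); points are libraries, bars are group medians and the triangle is WT amygdala replicate 3. Robo3, Cpne9 and Pvalb separate the regions with the triangle among the amygdala libraries, whereas for Trh and Trhr the triangle lies with the frontal cortex.

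Neuropeptide precursor genes were called about as often as other genes. Of 32 listed, 22 had enough reads; 5 were higher in the amygdala and 5 lower (22.7% each, against 26.4% and 15.9% of all genes), with a median log2 fold change of 0.06, the same as over all genes tested. Thyrotropin-releasing hormone (Trh) ranged from 1.03 to 57 normalised counts in amygdala libraries (median 31.3) and 0.39 to 1.77 in frontal cortex libraries (median 0.785) (log2 fold change 3.43, SE 0.68, adjusted p 0.00115). WT amygdala replicate 3, at 1.03, and KO amygdala replicate 2, at 2.38, were far below the other 6 amygdala libraries, which held 24.6 or more, so the regions overlapped through replicate 3. Without it the log2 fold change was 3.94, and with limma-voom on the recovered reads of all 16 libraries Trh did not pass (adjusted p 0.0916). Trh reached the read minimum largely through the amygdala, so its place among the 5 higher genes is a description and no test of direction. Trh did not reach the read minimum at P60, where it had between 0.81 and 33.5 normalised counts in the amygdala (median 24.2), against 0.3 to 1.1 in the frontal cortex (median 0.55).

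Somatostatin (Sst), an inhibitory peptide of interneurons and of the central amygdala, ranged from 91.4 to 223 normalised counts in amygdala libraries (median 194) and 110.0 to 133 in frontal cortex libraries (median 123) (log2 fold change 0.52, SE 0.14, adjusted p 0.00929). Its overlap also came from WT amygdala replicate 3, the lowest of all 16 libraries, and without it the log2 fold change was 0.66. Neurotensin (Nts, 1.08), prepronociceptin (Pnoc, 0.80) and neurokinin B (Tac2, 0.74) were the other genes higher in the amygdala. Prodynorphin (Pdyn), the source of the kappa opioid peptides, had a lowest, median and highest value of 0.41, 3.64 and 6.39 normalised counts in the amygdala, against 10.8, 13.4 and 17.7 in the frontal cortex (log2 fold change -1.93, SE 0.33, adjusted p 0.000248). Its groups did not overlap. Neuropeptide Y (Npy, -0.77), cholecystokinin (Cck, -0.51) and corticotropin-releasing hormone (Crh, -0.51) were also lower in the amygdala, although Crh marks the central nucleus; its counts were low, between 1.08 and 3.96 normalised counts in the amygdala (median 2.15), against 1.54 to 4.67 in the frontal cortex (median 3.56). Proenkephalin (Penk) ranged from 36.6 to 133 normalised counts in amygdala libraries (median 82) and 38.7 to 237 in frontal cortex libraries (median 162) and did not pass (adjusted p 0.175, limma).

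The calls of Cck and Crh were marginal. Leaving out KO amygdala replicate 2, KO frontal cortex replicate 2 or WT frontal cortex replicate 1, 2 or 3 ended that of Cck (adjusted p 0.0531 to 0.0629), and leaving out WT amygdala replicate 1 or 2 ended that of Crh (0.0529 and 0.0521). Penk passed without KO frontal cortex replicate 2 (log2 fold change -0.99, adjusted p 0.0497).

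The promoters of 3 of these precursor genes are shown because they represent the strongest rise, the strongest fall, and the gene whose cAMP response element is a textbook case. Each run is the 250 bases before the transcription start (RefSeq, GRCm38.p6, minus strand, 5′ to 3′), with the palindromic cAMP response element TGACGTCA in capitals where a search found it. The positions are chr16:23890845-23891094 for Sst, chr6:92244651-92244900 for Trh and chr2:129699939-129700188 for Pdyn.
Sst: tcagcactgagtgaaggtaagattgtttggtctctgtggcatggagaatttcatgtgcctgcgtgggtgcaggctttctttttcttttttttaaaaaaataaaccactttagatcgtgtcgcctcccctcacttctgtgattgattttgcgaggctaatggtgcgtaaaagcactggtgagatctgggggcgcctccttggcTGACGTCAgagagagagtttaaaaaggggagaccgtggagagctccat
Trh: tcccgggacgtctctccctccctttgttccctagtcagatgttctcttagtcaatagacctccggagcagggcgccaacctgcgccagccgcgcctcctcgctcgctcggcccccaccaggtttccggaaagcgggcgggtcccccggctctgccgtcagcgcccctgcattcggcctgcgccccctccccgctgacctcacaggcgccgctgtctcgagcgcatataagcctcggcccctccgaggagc
Pdyn: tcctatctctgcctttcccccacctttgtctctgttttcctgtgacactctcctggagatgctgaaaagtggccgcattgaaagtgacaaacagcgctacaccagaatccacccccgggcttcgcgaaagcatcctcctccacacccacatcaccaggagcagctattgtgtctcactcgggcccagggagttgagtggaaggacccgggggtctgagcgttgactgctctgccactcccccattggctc
The element lies in the Sst promoter, its first base 48 bases before the start, and these letters are not in the Trh and Pdyn windows. Among 32851 promoters of this length 1.55% hold it, and 5 of the 26 listed precursor genes with a promoter entry do (Cartpt, Chgb, Scg2, Sst and Ucn). Of those, Sst passed in limma and Ucn was not tested. Scg2 (log2 fold change -0.01, SE 0.15) and Chgb (log2 fold change -0.04, SE 0.14) did not differ beyond their spread, and Cartpt did not pass (log2 fold change 0.59, adjusted p 0.0785), except when WT amygdala replicate 4, KO frontal cortex replicate 1 or WT frontal cortex replicate 3 was left out (0.0168 to 0.0454).

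Neuropeptide receptors were more often higher in the amygdala. Of 38 listed, 31 were tested; 18 were higher and 5 lower (58.1% and 16.1%, against 26.4% and 15.9% of all genes), with a median log2 fold change of 0.42. The thyrotropin-releasing hormone receptor gene Trhr had a lowest, median and highest value of 2.41, 51.4 and 76.3 normalised counts in the amygdala, against 1.08, 2.42 and 5.32 in the frontal cortex (log2 fold change 3.26, SE 0.56, adjusted p 0.000341). As for its ligand, WT amygdala replicate 3 (2.41) lay within the frontal cortex range and KO replicate 2 (16.8) was the next lowest; without WT replicate 3 the log2 fold change was 3.75. The neuropeptide Y receptor gene Npy2r ranged from 6.89 to 45 normalised counts in amygdala libraries (median 35.4) and 1.24 to 6.93 in frontal cortex libraries (median 3.1) (log2 fold change 2.80, SE 0.37, adjusted p 3.32e-05), with the same library at the amygdala minimum and a log2 fold change of 3.08 without it.

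The oxytocin receptor gene Oxtr, through which oxytocin acts on social behaviour, had between 12.7 and 38.1 normalised counts in the amygdala (median 31.2), against 5.55 to 11.1 in the frontal cortex (median 7.7) (log2 fold change 1.73, SE 0.19, adjusted p 3.26e-06). Every amygdala library exceeded every frontal cortex library. The substance P receptor gene Tacr1 was also higher (1.33). The corticotropin-releasing hormone receptor gene Crhr1, a mediator of stress responses, went the other way, with between 4.0 and 11.4 normalised counts in the amygdala (median 8.16), against 15.8 to 21.7 in the frontal cortex (median 18.7) (log2 fold change -1.23, SE 0.14, adjusted p 1.12e-06) and no overlap. The opioid receptor genes Oprk1 (kappa, -1.11) and Oprd1 (delta, -0.86) were lower in the amygdala, as was Vipr1 (-0.66), while the mu receptor gene Oprm1, listed with intercalated cells, was higher (0.52, adjusted p 0.0148 in limma).

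Receptors for monoamines and acetylcholine were more often lower. Of 34 tested, 7 were higher in the amygdala and 18 lower (20.6% and 52.9%, against 26.4% and 15.9% of all genes), with a median log2 fold change of -0.28. The serotonin receptor gene Htr2c had a lowest, median and highest value of 110.4, 144 and 169 normalised counts in the amygdala, against 11.9, 39.9 and 61.3 in the frontal cortex (log2 fold change 2.06, SE 0.31, adjusted p 0.000111). Its groups did not overlap and WT amygdala replicate 3 was among the higher amygdala libraries. Htr4 (1.44), the ionotropic serotonin receptor gene Htr3a (1.27) and the alpha-2A adrenergic receptor gene Adra2a (1.27) were higher as well. Htr2a, a cortical serotonin receptor gene, ranged from 8.67 to 26.3 normalised counts in amygdala libraries (median 13.3) and 31.4 to 45.1 in frontal cortex libraries (median 35.3) (log2 fold change -1.32, SE 0.16, adjusted p 5.30e-06), opposite in direction to Htr2c.

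The nicotinic subunit gene Chrnb3 was close to absent from the amygdala, with between 0 and 0.6 normalised counts in the amygdala (median 0.22), against 2.86 to 6.75 in the frontal cortex (median 4.2) (log2 fold change -2.08, SE 0.15, adjusted p 1.48e-09). The adrenergic receptor gene Adra1d was lower too (-1.76). The dopamine receptor gene Drd2 ranged from 1.93 to 15.8 normalised counts in amygdala libraries (median 3.08) and 2.84 to 45 in frontal cortex libraries (median 28.4) (log2 fold change -2.11, SE 0.54, adjusted p 0.00616). It overlapped, since WT amygdala replicate 3 had 15.8 and KO frontal cortex replicate 2 had only 2.84, and without WT amygdala replicate 3 the log2 fold change was -2.36; Drd2 is also a striatal marker, and the part of striatal tissue in its difference was not tested.

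The GABA-A receptor subunits split. All 13 tested subunit genes passed, 7 higher in the amygdala and 6 lower (53.8% and 46.2%, against 26.4% and 15.9% of all genes), with a median log2 fold change of 0.19. Gabra2, an alpha subunit, had a lowest, median and highest value of 126, 259.5 and 301 normalised counts in the amygdala, against 81.8, 89.7 and 108 in the frontal cortex (log2 fold change 1.35, SE 0.15, adjusted p 6.08e-06), and Gabrq, the theta subunit of hypothalamic and amygdalar receptors, had between 4.65 and 23.2 normalised counts in the amygdala (median 13.8), against 0.2 to 5.96 in the frontal cortex (median 1.2) (log2 fold change 2.50, SE 0.36, adjusted p 5.31e-05). Gabra2 did not overlap, and Gabrq overlapped through WT amygdala replicate 3 (4.65), without which its log2 fold change was 2.71. Gabrg1 (0.81) and Gabrb1 (0.57) completed the larger rises. Gabrd, the delta subunit of extrasynaptic receptors, had a lowest, median and highest value of 10.3, 13.6 and 21 normalised counts in the amygdala, against 29.8, 32.5 and 38 in the frontal cortex (log2 fold change -1.14, SE 0.12, adjusted p 8.65e-07), without overlap. Gabra4 (-0.66) and Gabrg3 (-0.60) were lower as well.

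Among glutamate receptors, 9 of 24 tested genes were higher in the amygdala and 8 lower (37.5% and 33.3%, against 26.4% and 15.9% of all genes), with a median log2 fold change of 0.00. The NMDA receptor subunit gene Grin3a ranged from 70.9 to 235 normalised counts in amygdala libraries (median 183) and 49.3 to 78.2 in frontal cortex libraries (median 66.7) (log2 fold change 1.28, SE 0.19, adjusted p 9.20e-05), and the AMPA receptor subunit gene Gria1 was also higher (0.97), both with WT amygdala replicate 3 as the lowest amygdala library; without it the log2 fold changes were 1.45 and 1.10. The kainate receptor gene Grik1 (0.94) and the NMDA subunit gene Grin2d (0.65) followed. The lower genes were led by metabotropic receptors that dampen transmitter release: Grm4 had between 13.2 and 18.5 normalised counts in the amygdala (median 15.3), against 35.4 to 42.1 in the frontal cortex (median 39.7) (log2 fold change -1.27, SE 0.073, adjusted p 1.10e-10), with Grm2 at -1.18 and Grm3 at -1.05, and the kainate receptor gene Grik4 at -0.65. None of these 4 overlapped between the regions.

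**Figure D3:**
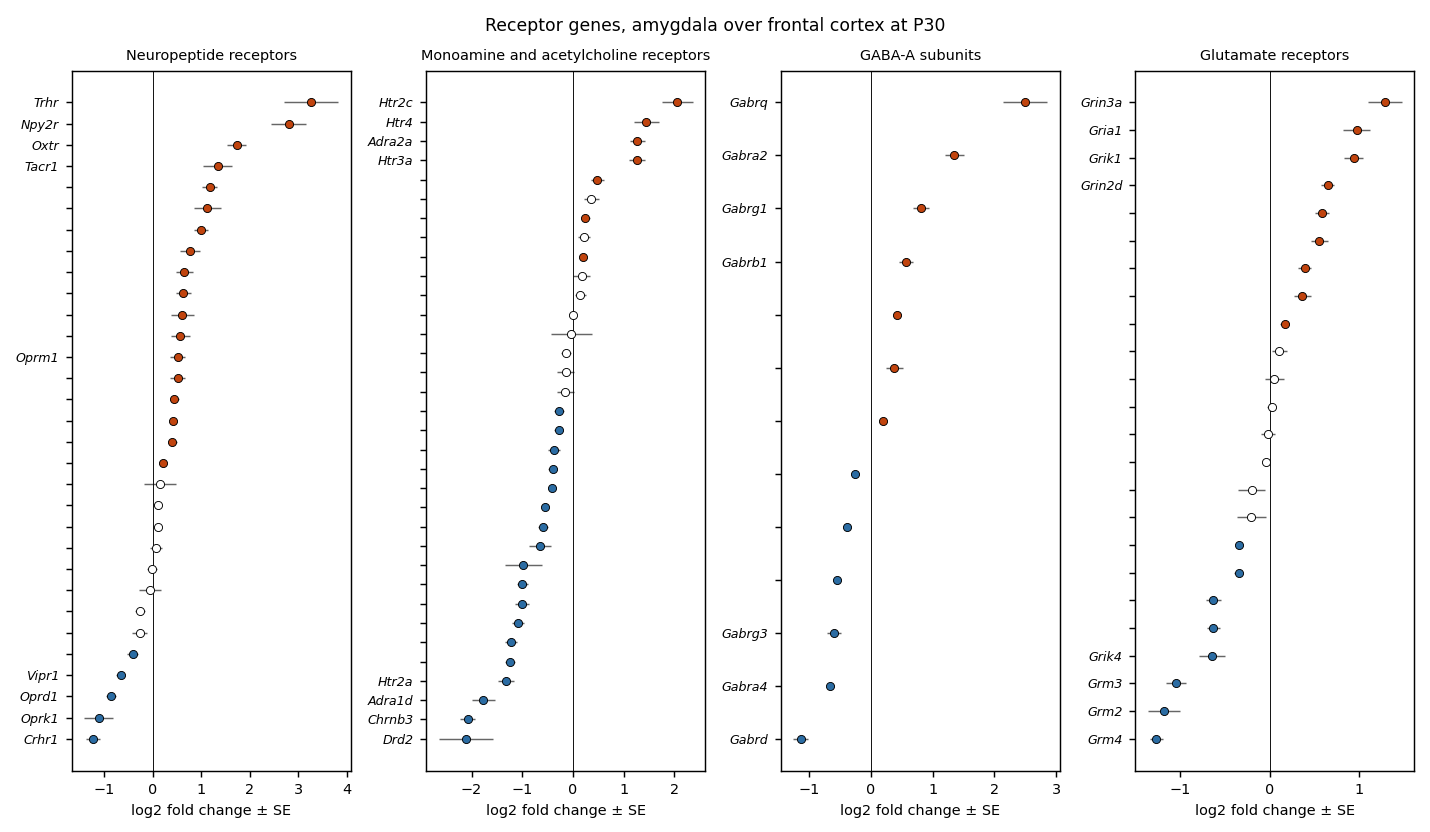
Log2 fold change of amygdala over frontal cortex at P30 with its SE for the tested genes of 4 receptor families, from limma; filled points passed an adjusted p of 0.05, and genes named in the text are labelled. Trhr, Npy2r and Oxtr head the peptide receptors, Htr2c the monoamine receptors and Gabrq the GABA-A subunits, while Drd2, Chrnb3, Crhr1, Gabrd and Grm4 lie lowest or next to lowest in their families.

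Voltage-gated potassium channel genes were more often lower, with 10 of 18 lower in the amygdala and 5 higher (55.6% and 27.8%, against 15.9% and 26.4% of all genes), and a median log2 fold change of -0.23. Kcnd3, a subunit of the A-type current, had between 163 and 264 normalised counts in the amygdala (median 229), against 81.5 to 112 in the frontal cortex (median 98.4) (log2 fold change 1.16, SE 0.065, adjusted p 8.20e-11). The groups stayed apart. Kcnq5, a subunit of the M current, had a lowest, median and highest value of 61.2, 70.4 and 124 normalised counts in the amygdala, against 179.8, 198 and 206 in the frontal cortex (log2 fold change -1.28, SE 0.14, adjusted p 4.60e-06), again without overlap. Kcna1 (-0.99) and Kcna2 (-0.78) were lower as well, and Kcna5 (0.77), Kcna3 (0.40) and Kcnc4 (0.38) followed Kcnd3.

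Cortical projection neuron genes were more often lower in the amygdala than higher at P30, with exceptions in each list. Of 11 upper-layer genes, 4 were higher and 6 lower (36.4% and 54.5%, against 26.4% and 15.9% of all genes, median -0.88). Cux2, a homeobox gene of upper layers, ranged from 37.3 to 126 normalised counts in amygdala libraries (median 64.8) and 150.4 to 252 in frontal cortex libraries (median 163) (log2 fold change -1.37, SE 0.20, adjusted p 8.59e-05); the highest amygdala value was WT replicate 3, below the lowest frontal cortex library. Pou3f1 (-1.75), Pou3f2 (-1.56) and Cux1 (-1.09) were lower in the same way. Otof, encoding the exocytosis protein otoferlin, was higher, with a lowest, median and highest value of 59.7, 83 and 107 normalised counts in the amygdala, against 12.9, 19.1 and 35.5 in the frontal cortex (log2 fold change 1.98, SE 0.22, adjusted p 8.24e-06). Unc5d (0.98), Mdga1 (0.74) and Plxnd1 (0.38) were higher too, but Plxnd1 no longer passed without KO amygdala replicate 2 or 3, WT amygdala replicate 3 or 4, or frontal cortex replicate 2 of either genotype (adjusted p 0.050 to 0.0567).

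Of 15 deep-layer genes tested, 3 were higher and 7 lower (20.0% and 46.7%, against 26.4% and 15.9% of all genes, median -0.38). At P60 4 were higher and 6 lower, with a median of 0.08, and their summed level had a median of 775 normalised counts in the amygdala, against 681 in the frontal cortex. Syt6 (-1.72), Cplx3 (-1.65), Foxp2 (-1.44) and Deptor (-1.02) were lowest, and Crym (1.67), Etv1 (0.71) and Bcl11b (0.52) were higher. Among 11 genes of pallial glutamatergic neurons, 2 were higher and 6 lower (18.2% and 54.5%, median -0.20): Neurod6 (-1.65), Tbr1 (-1.09) and Nrgn (-0.89) were among the lower genes, and Bhlhe22 (1.17) and Neurod1 (0.89) were higher. Tbr1 in WT amygdala replicate 3, at 181, was within the frontal cortex range of 172 to 213, and without it the log2 fold change of Tbr1 was -1.25. Slc17a7 passed with a small difference (log2 fold change -0.20, SE 0.069, adjusted p 0.0257), and Slc17a6, encoding the transporter of subcortical glutamatergic neurons, had between 26.5 and 80.1 normalised counts in the amygdala (median 38.6), against 19.5 to 34.3 in the frontal cortex (median 26.7) (log2 fold change 0.64, SE 0.22, adjusted p 0.0339). Slc17a7 no longer passed without KO amygdala replicate 1, WT amygdala replicate 1 or 2, or WT frontal cortex replicate 3 (adjusted p 0.0528 to 0.0574). Slc17a6 no longer passed without KO amygdala replicate 3, WT amygdala replicate 1 or 2, KO frontal cortex replicate 2 or 4, or WT frontal cortex replicate 1, 2 or 3 (0.0512 to 0.0651).

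Interneuron class markers moved in both directions. Of 19 class markers, 9 were higher in the amygdala and 6 lower (47.4% and 31.6%, against 26.4% and 15.9% of all genes, median 0.17). Parvalbumin (Pvalb), the calcium buffer of fast-spiking interneurons, had a lowest, median and highest value of 2.77, 4.53 and 5.85 normalised counts in the amygdala, against 18.5, 20.7 and 24.1 in the frontal cortex (log2 fold change -2.05, SE 0.11, adjusted p 4.32e-11), without overlap. Lamp5, of neurogliaform cells and upper-layer neurons, ranged from 36.9 to 65 normalised counts in amygdala libraries (median 42.6) and 133 to 199.9 in frontal cortex libraries (median 172) (log2 fold change -1.89, SE 0.11, adjusted p 1.21e-09), and Satb1, a chromatin regulator of medial ganglionic eminence interneurons, was also lower (-1.64). Calretinin (Calb2) had between 9.64 and 45.1 normalised counts in the amygdala (median 32), against 2.56 to 8.55 in the frontal cortex (median 3.88) (log2 fold change 2.37, SE 0.32, adjusted p 3.81e-05), and the nitric oxide synthase gene Nos1 had a lowest, median and highest value of 110.3, 351 and 398 normalised counts in the amygdala, against 52.8, 74.7 and 100.1 in the frontal cortex (log2 fold change 2.02, SE 0.25, adjusted p 2.44e-05). Neither overlapped. Htr3a and Ndnf (1.09) were higher as well.

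The general GABAergic genes differed little. Gad1, encoding the main GABA-synthesising enzyme, had between 186 and 265 normalised counts in the amygdala (median 221), against 192 to 252 in the frontal cortex (median 216), and did not pass (log2 fold change 0.01, SE 0.068, adjusted p 0.9). Slc32a1, the vesicular GABA transporter gene, did not pass either (log2 fold change -0.10, SE 0.10, adjusted p 0.47). Gad2 was higher in the amygdala, with a lowest, median and highest value of 218, 259.7 and 317 normalised counts in the amygdala, against 153, 197 and 259 in the frontal cortex (log2 fold change 0.40, SE 0.12, adjusted p 0.0156), as was the membrane transporter gene Slc6a11 (0.34); 3 of the 6 genes of this list passed.

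Genes that mark amygdala nuclei gave unequal differences. All 4 medial amygdala genes with enough reads, of 9 listed, were higher (100%, against 26.4% of all genes), among them Lhx9, Esr1 and Lhx6. A gene can reach the read minimum largely through the region where it is high, as Lhx9 did through the amygdala. The count is therefore a description and no test of direction. Lhx9, a LIM homeobox gene, had a lowest, median and highest value of 0.86, 17.6 and 28.7 normalised counts in the amygdala, against 0.13, 0.34 and 1.77 in the frontal cortex (log2 fold change 3.03, SE 0.50, adjusted p 0.000247), and the oestrogen receptor gene Esr1 had between 4.65 and 48.3 normalised counts in the amygdala (median 35.1), against 1.08 to 6.72 in the frontal cortex (median 4.29) (log2 fold change 2.29, SE 0.45, adjusted p 0.00108). Both overlapped, with WT amygdala replicate 3 at 0.86 and 4.65; without it the log2 fold changes were 3.46 and 2.58. Lhx6, another LIM homeobox gene, differed by a log2 fold change of 0.52 (adjusted p 0.0156, limma).

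Of 7 central amygdala genes tested, 5 were higher and 1 lower (71.4% and 14.3%, against 26.4% and 15.9% of all genes). The lower gene was Crh, whose call ended without WT amygdala replicate 1 or 2 as given above. Dlk1, an imprinted Notch-family ligand, had the largest difference, with a lowest, median and highest value of 10.2, 67.7 and 119 normalised counts in the amygdala, against 0.42, 2.39 and 15 in the frontal cortex (log2 fold change 3.84, SE 0.59, adjusted p 0.000156). It overlapped because WT amygdala replicate 3 (10.2) was below the highest frontal cortex library, and without it the log2 fold change was 4.18. Prkcd, the protein kinase C gene that marks a class of central amygdala neurons, had between 7.23 and 18.9 normalised counts in the amygdala (median 9.46), against 6.65 to 13.8 in the frontal cortex (median 9.29) and did not pass (log2 fold change 0.05, SE 0.17, adjusted p 0.823). Of 4 basolateral genes, 1 passed: Ppp1r1b, also a striatal marker, was lower (-1.39). Rspo2 (log2 fold change -0.01, SE 0.24, adjusted p 0.988) and Fezf2 (log2 fold change -0.02, SE 0.44, adjusted p 0.979) did not pass, nor did Grp, with between 1.2 and 38 normalised counts in the amygdala (median 8.06), against 1.61 to 7.1 in the frontal cortex (median 3.92) (log2 fold change 1.05, SE 0.41, adjusted p 0.0548). Grp passed without KO amygdala replicate 2, WT amygdala replicate 3 or WT frontal cortex replicate 1 (adjusted p 0.00963 to 0.0424).

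Transcription factors of the subpallium and diencephalon were higher in 10 of 21 tested cases and lower in 2 (47.6% and 9.52%, against 26.4% and 15.9% of all genes, median 0.41). The summed level of the 29 listed genes ran the other way. It was 597.1 to 637.3 normalised counts in the amygdala and 645.2 to 847.5 in the frontal cortex. Zic2, a zinc finger factor, had a lowest, median and highest value of 19.8, 46.2 and 59.9 normalised counts in the amygdala, against 10.8, 14.6 and 18.1 in the frontal cortex (log2 fold change 1.33, SE 0.24, adjusted p 0.0004), without overlap, and Zic5 (0.94) and Zic1 (0.62) followed. Foxp1, which is expressed in cortical and striatal projection neurons, had between 84 and 175 normalised counts in the amygdala (median 107), against 277 to 359 in the frontal cortex (median 325) (log2 fold change -1.52, SE 0.12, adjusted p 1.10e-07), and Foxp2 was the other lower gene. Steroid hormone genes split evenly, 4 higher and 4 lower of 8: the mineralocorticoid receptor gene Nr3c2 was higher (0.91), whereas the glucocorticoid receptor gene Nr3c1 had a lowest, median and highest value of 87.2, 104 and 118 normalised counts in the amygdala, against 139.7, 144 and 155 in the frontal cortex (log2 fold change -0.49, SE 0.058, adjusted p 1.26e-06). Neither receptor overlapped between the regions. The progesterone receptor gene Pgr (-0.69) and the steroid-induced kinase gene Sgk1 (-0.71) were lower.

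Myelin genes were lower in the amygdala throughout. All 15 of 15 listed genes of myelinating oligodendrocytes passed as lower (100%, against 15.9% of all genes), with a median log2 fold change of -1.38. Mog, encoding a myelin surface glycoprotein, had between 9.94 and 61.3 normalised counts in the amygdala (median 17.2), against 45.4 to 79.9 in the frontal cortex (median 61.9) (log2 fold change -1.67, SE 0.28, adjusted p 0.00025). For Mog, WT amygdala replicate 3 was the only amygdala library within the frontal cortex range; without it the log2 fold change of Mog was -1.91 and the median of the list -1.61. At P60, 14 of the 15 were lower (93.3%, against 13.4% of all genes), with a median of -0.84. Markers of oligodendrocyte precursors were not lower as a group. They were higher in 5 of 10 cases, against 26.4% of all genes, among them Lhfpl3 (0.68) and Pdgfra (0.62). Another 2 of the 10 were lower, a share near the 15.9% of all genes. These were Sox10 (-0.41) and Olig1 (-0.39), which mature oligodendrocytes also express.

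Striatal projection neuron genes were also lower, 14 of 18 tested (77.8%, against 15.9% of all genes), with a median log2 fold change of -1.38. Adora2a, encoding an adenosine receptor of indirect-pathway neurons, ranged from 0.42 to 9.12 normalised counts in amygdala libraries (median 0.875) and 1.55 to 27.1 in frontal cortex libraries (median 18.3) (log2 fold change -2.50, SE 0.56, adjusted p 0.00272). WT amygdala replicate 3 held the highest amygdala value, and KO frontal cortex replicate 2 the lowest frontal cortex value, at 1.55; without WT amygdala replicate 3 the log2 fold change was -2.79. Drd2, Pdyn and Sh3rf2 (-1.92) followed in size. The summed level of this list varied among the frontal cortex libraries as given above, and its part in these differences was not tested. At P60, 8 of 18 passed as lower (44.4%, against 13.4% of all genes), with a median of -1.19.

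Among other cells, astrocyte genes were higher in 8 of 15 cases and lower in 2 (53.3% and 13.3%, against 26.4% and 15.9% of all genes, median 0.25). Their summed level ran the other way, with a median of 7919 normalised counts in the amygdala, against 8736 in the frontal cortex. Agt, encoding angiotensinogen, had a lowest, median and highest value of 8.26, 22.1 and 37.9 normalised counts in the amygdala, against 1.64, 3.21 and 10.8 in the frontal cortex (log2 fold change 2.17, SE 0.38, adjusted p 0.000355), and the intermediate filament gene Gfap ranged from 75.2 to 153 normalised counts in amygdala libraries (median 106) and 49.5 to 75.2 in frontal cortex libraries (median 58.6) (log2 fold change 0.88, SE 0.11, adjusted p 4.70e-06). Agt overlapped through WT amygdala replicate 3 (8.26), without which its log2 fold change was 2.37, and Gfap was highest in that same library. The glutamate transporter gene Slc1a2 (-0.26) and Aldh1l1 (-0.29) were lower. 

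WT amygdala replicate 3 also stood apart in microglial and vascular markers. Summed microglial markers came to 422 normalised counts in it, against 240 to 328 in the other amygdala libraries and 304 to 340 in the frontal cortex. Summed endothelial markers came to 723 in it, against 393 to 481 in the other amygdala libraries and 497 to 587 in the frontal cortex. Of 15 microglial genes, 1 passed, as lower in the amygdala (6.67%, against 15.9% of all genes). The count was 4 without WT amygdala replicate 3, 3 without KO amygdala replicate 2, 2 without WT frontal cortex replicate 2 and 3 after trimmed mean scaling. Of 12 endothelial genes, 4 were lower (33.3%, against 15.9% of all genes), led by Esam (-0.44). That count was 7 without WT amygdala replicate 3, 1 without WT amygdala replicate 4, and 2 without KO amygdala replicate 1 or 4, WT amygdala replicate 2, or frontal cortex replicate 1 of either genotype. Pericyte genes were lower in 2 of 9 cases (22.2%, against 15.9% of all genes), a count that was 0 to 3 with each of the 16 libraries left out in turn.

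Meningeal genes were higher, 8 of 10 tested (80.0%, against 26.4% of all genes), with a median log2 fold change of 1.04. Dcn, encoding decorin, had between 23.1 and 236 normalised counts in the amygdala (median 54.2), against 8.97 to 18.2 in the frontal cortex (median 12.1) (log2 fold change 2.36, SE 0.44, adjusted p 0.000761). Its groups did not overlap, and KO amygdala replicates 1 and 4 held the highest values. Ogn (1.44), Fmod (1.28) and the transporter gene Slc6a13 (1.17) were higher as well. Of the choroid plexus genes, 1 of 8 tested passed as lower (12.5%, against 15.9% of all genes): Enpp2 (-1.33), which oligodendrocytes also express. Enpp2 no longer passed when KO amygdala replicate 1, 3 or 4, WT amygdala replicate 2 or 4, or frontal cortex replicate 2 of either genotype was left out (adjusted p 0.0502 to 0.0601). Without KO frontal cortex replicate 2, 2 choroid plexus genes passed as higher. Ttr, the defining marker, ranged from 2.09 to 1096 normalised counts in amygdala libraries (median 6.07) and 6.99 to 639 in frontal cortex libraries (median 15.6) and did not pass.

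Markers of other neighbouring tissues were also counted. Of 8 hippocampal genes tested, 3 were higher in the amygdala (37.5%, against 26.4% of all genes), Cabp7 (1.05), Spink8 (0.82) and Zbtb20 (0.61), and the 12 listed genes summed to 569 to 898 normalised counts in the amygdala and 446 to 527 in the frontal cortex. The count was 5 of 9 without WT amygdala replicate 3 or without WT frontal cortex replicate 4, and 6 of 7 at P60. Of 12 thalamic genes, 4 were higher and 3 lower (33.3% and 25%, against 26.4% and 15.9% of all genes). Of 3 ependymal genes, 1 was higher and 1 lower (33.3% each). Of 6 claustral genes, 1 was higher and 2 lower (16.7% and 33.3%). These counts were 0 to 1 and 1 to 4 with each library left out in turn. The part of such tissue in the differences was not tested.

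**Figure D4:**
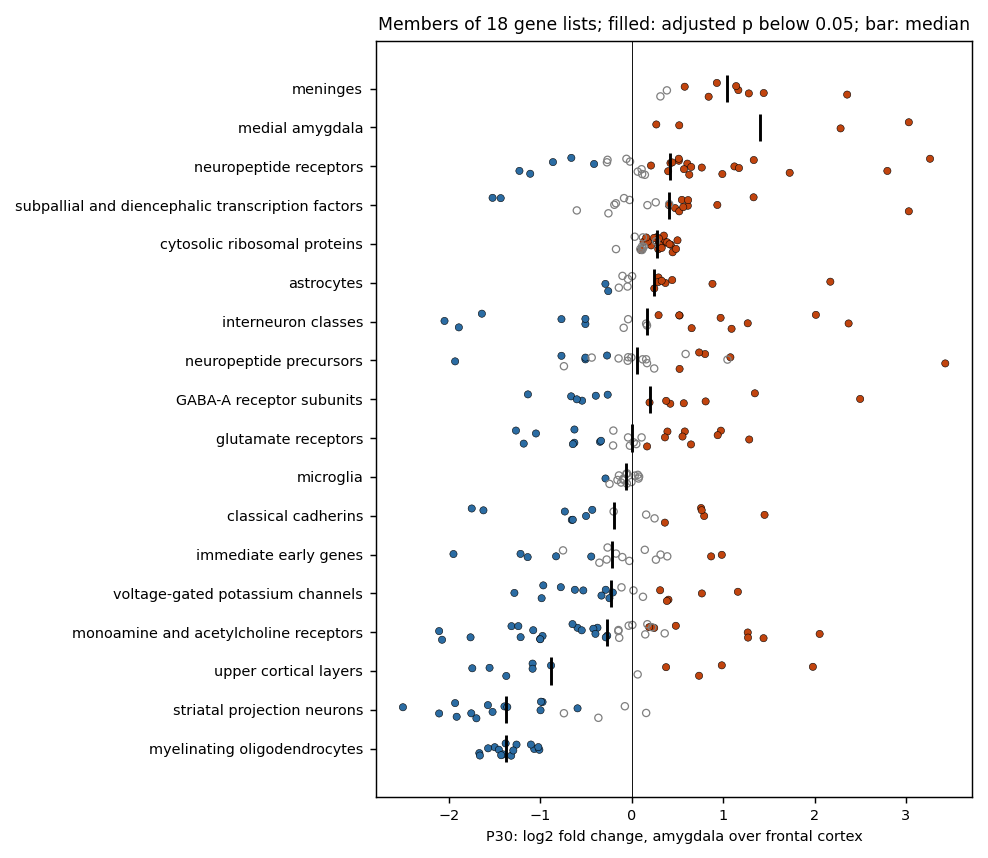
Log2 fold change of amygdala over frontal cortex at P30 for the tested members of 18 gene lists; filled points passed an adjusted p of 0.05 in limma, open points did not, and black bars are list medians. All 15 myelin genes lie below 0 and all 4 tested medial amygdala genes above it, while the receptor and channel families spread to both sides.

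Immediate early genes, induced by neuronal activity, were called about as often as other genes. Of 18, 2 were higher and 5 lower (11.1% and 27.8%, against 26.4% and 15.9% of all genes, median -0.22), and 4 were higher without WT amygdala replicate 2. Arc, encoding a synaptic protein induced by activity, ranged from 15.6 to 113 normalised counts in amygdala libraries (median 49.2) and 48.9 to 300.3 in frontal cortex libraries (median 207) (log2 fold change -1.95, SE 0.44, adjusted p 0.00295), and Homer1, encoding a postsynaptic scaffold protein, had a lowest, median and highest value of 159, 211 and 299 normalised counts in the amygdala, against 369, 500.4 and 552 in the frontal cortex (log2 fold change -1.14, SE 0.11, adjusted p 9.81e-07). Arc overlapped and Homer1 did not. Egr1 (-1.22) and Egr3 (-0.83) were lower too. Jun (0.98) and Nr4a3 (0.87) were higher, and Fos, with between 2.93 and 18.6 normalised counts in the amygdala (median 11), against 3.27 to 15.7 in the frontal cortex (median 11.4), did not pass (log2 fold change -0.17, SE 0.34, adjusted p 0.721).

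Adhesion and guidance genes changed in both directions. Of 15 classical cadherins, 5 were higher and 7 lower (33.3% and 46.7%, against 26.4% and 15.9% of all genes): Cdh4 had a lowest, median and highest value of 59.4, 104 and 133 normalised counts in the amygdala, against 28.3, 34.3 and 44.6 in the frontal cortex (log2 fold change 1.45, SE 0.15, adjusted p 2.36e-06), and Cdh6 had between 4.98 and 9.51 normalised counts in the amygdala (median 8.0), against 25.2 to 34.5 in the frontal cortex (median 28.4) (log2 fold change -1.75, SE 0.10, adjusted p 9.70e-11), neither with overlap. Cdh12 was next lowest (-1.62). Of 18 Eph receptors and ephrins, 5 were higher, a share near that of all genes, and 7 lower (27.8% and 38.9%). Epha6 (1.30) and the ligand gene Efnb3 (1.08) led the higher ones, and Ephb6 (-1.82) and Ephb1 (-1.30) the lower ones. In the retinoic acid pathway 5 of 13 genes were higher and 3 lower (38.5% and 23.1%), or 3 higher without KO amygdala replicate 2 and after trimmed mean scaling, with the synthesising enzyme genes opposed: Aldh1a2 was higher (1.14) and Aldh1a1 lower (-1.28). Of 11 perineuronal matrix genes tested, 1 was higher, Tnc (1.20), and 3 lower (9.09% and 27.3%), led by Hapln2 (-1.76), which oligodendrocytes express; 2 were higher without KO frontal cortex replicate 1 or 3 or WT frontal cortex replicate 3.

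Genes of protein synthesis differed by little. Of 32 cytosolic ribosomal protein genes, 23 were higher in the amygdala (71.9%, against 26.4% of all genes) and the other 9 did not pass, with a median log2 fold change of 0.28; after trimmed mean scaling, 17 were higher and 1 lower. Rpl10 showed the largest difference (log2 fold change 0.50, SE 0.073, adjusted p 1.59e-05). Of 15 mitochondrially encoded genes, 2 were higher and 1 lower (13.3% and 6.67%, against 26.4% and 15.9% of all genes). After trimmed mean scaling 0 were higher. With each library left out in turn 0 to 1 were lower, and 5 were higher without WT frontal cortex replicate 1.

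The region difference was then examined at P60. Of 17101 genes tested, 6376 passed (37.3%), 4088 higher in the amygdala (23.9%) and 2288 lower (13.4%); after trimmed mean scaling 49.4% of the calls were higher in the amygdala, against 64.1% with the deposited values. Of all genes called higher at P30, 4511 could be tested at P60, and 3241 of them passed in the same direction (71.85%). Of all those called lower, 2691 could be tested and 1904 passed in the same direction (70.75%). The shares were larger among the larger differences. Of the P30 genes over 2-fold higher, 341 could be tested at P60, and 337 of them passed in the same direction (98.8%). Of those over 2-fold lower, 344 could be tested and 332 passed in the same direction (96.5%). Taken from P60, 406 of 413 genes over 2-fold higher (98.3%) and 280 of 280 over 2-fold lower passed in the same direction at P30. No gene passed in opposite directions at the 2 ages in limma. Across the 16901 genes tested at both ages the log2 fold changes had a Pearson correlation of 0.93 and a Spearman correlation of 0.86, as a description, since genes are not independent replicates.

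**Figure D5:**
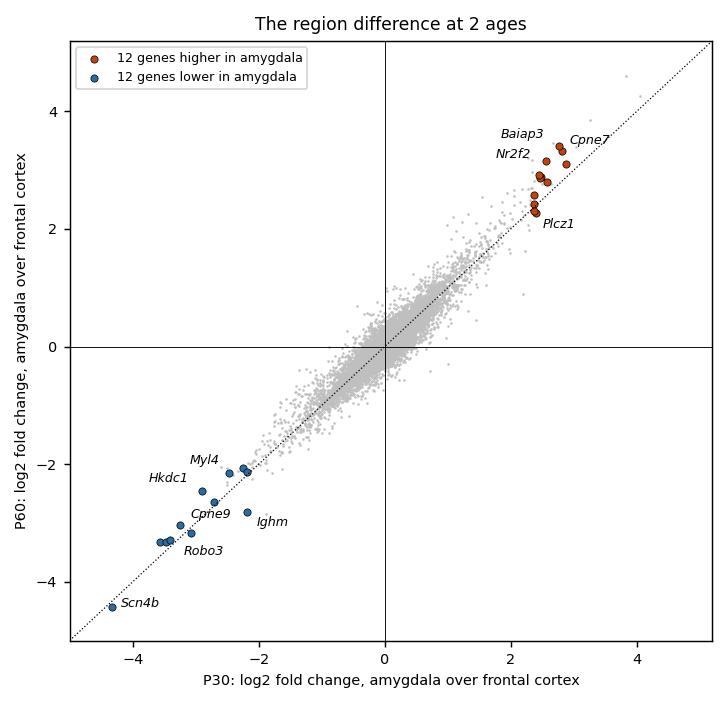
Log2 fold change of amygdala over frontal cortex at P30 (x axis) and P60 (y axis) for 16901 genes; coloured points are the 12 genes highest and the 12 lowest by the naming rule, and the dotted line marks equal values. All 24 lie on the same side of 0 at both ages.

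Several genes that overlapped at P30 through WT amygdala replicate 3 were separate at P60. Trhr had between 13.5 and 56.2 normalised counts in the amygdala (median 39.3), against 0.64 to 2.38 in the frontal cortex (median 1.43) at P60 (log2 fold change 3.85, adjusted p 2.05e-06). Npy2r (3.28), Lhx9 (3.40), Dlk1 (4.60) and Gabrq (2.77) likewise did not overlap at P60. Other differences were not called again: Drd2 had a log2 fold change of -2.06 with an adjusted p of 0.0548, Foxp2 -0.98 with 0.0823, and Oprk1 -0.41 with 0.418. The difference between the ages was not tested. At P60 KO amygdala replicate 3 stood apart in cholinergic markers, with a sum of 43.6 against 3.06 to 6.53 in the other 6 amygdala libraries, and without replicate 3 of both genotypes 6943 of 17543 genes passed (39.6%).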

How the data were processed

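RNA was sequenced from bulk mouse brain tissue, and 1 table per age was used. The deposited values are scaled read counts per gene: dividing a library's values by its smallest step gave whole reads (within 0.1 read) for 100.0% of them, and the totals, 983835 to 1028111 per P30 library, include a size factor that the sources do not give. The submitters' processing notes name limma, DESeq, edgeR and the mm9 build; which aligner, counter and strand setting were used is not given in the sources used here. Of 48526 gene IDs, 48058 were found in GENCODE M21 (GRCm38), which gave symbols and positions.

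Region differences were fitted with limma 3.58.1 (trend and robust options, statmod 1.5.0, R 4.3.3) on log2(value + 1), with region and genotype as terms and Benjamini-Hochberg adjustment over all genes tested. A fold change on this scale understates that of low genes. A gene was tested if at least 8 libraries at P30, or 7 at P60, held the equivalent of 10 reads in a library of median depth, and all libraries together 15 reads. Each region has that many libraries, so a gene could be tested through 1 region alone. The interaction of region and genotype was a further term. The fits were tested on counts simulated with the same dispersion for all genes and no library set apart, unlike these data. The P30 region fit recovered 66 of 67 changes of 1.5-fold, with 14 false calls among 213. The interaction fit recovered 33 of 67 changes of 1.5-fold (49.3%) and 61 of 67 of 2-fold (91.0%), so smaller interactions could be missed. The planned edgeR and DESeq2 fits were not run; limma-voom on the recovered reads, added after the data were seen, was the count-based alternative. Other alternatives were the pseudocount, filters, scaling, each genotype alone, hippocampus libraries in the fit, a replicate block and each library left out.

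Named genes were the 12 largest differences each way without overlap and a mean of at least 5 (Gm and Rik names only if among the first 3), up to 4 each way within each of 39 gene lists, and defining markers; some of these are not reported here. The members and lists were chosen with earlier results of these data known. Groups follow the sample labels, which give frontal cortex and P60 where the design text differs. Python 3.11.15 and pandas 2.3.3 made the tables.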

Additional observations from a re-analysis of the deposited data

Results flagged for a closer look

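At P30 each group of 4 libraries was searched, gene by gene, for a library whose gap to the nearest of the other 3 exceeded Dixon's 95% critical value as a share of the whole range. The 175 named genes with enough reads gave 700 groups, and 79 of them held such a library (11.3%), where chance gives about 5%. WT amygdala replicate 3 accounted for 40. Values are that library's normalised counts. WT amygdala replicate 3 stood above the other 3 for Adora2a (9.12), Aldh1a1 (34.4), Cdh12 (55.6), Chgb (798), Cpne5 (90.2), Cux1 (217), Cux2 (126), Deptor (56.3), Drd2 (15.8), Ephb1 (55.6), Grik1 (59), Hapln2 (13.4), Hr (25.1) and Kcna1 (131). The same held for Kcna2 (456), Kcnq5 (119), Mog (61.3), Pou3f1 (14.6), Pou3f2 (44.9), Ppp1r1b (133), Scn4b (31.5), Sh3rf2 (12.7), Slc1a2 (7647), Syt2 (17.6) and Xirp2 (2.24). It stood below them for Arhgap6 (38.9), Cpne6 (153), Cpne7 (39.1), Dlk1 (10.2), Esr1 (4.65), Gabra2 (126), Gria1 (316), Grin2d (23.9), Grin3a (70.9), Htr4 (4.82), Lhx9 (0.86), Meg3 (4957), Nr2f1 (84.2) and Trhr (2.41). The same held for Zic5 (6.2).

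KO amygdala replicate 2 stood above the other 3 for Adora2a (4.63), Cpne9 (12.3), Drd2 (8.01), Htr2a (26.3), Scn4b (11.1) and Xirp2 (1.75). KO amygdala replicate 3 stood below the other 3 for Gm37176 (3.38). WT amygdala replicate 1 stood above the other 3 for Enpp2 (712) and Ttr (1096). WT amygdala replicate 4 stood below the other 3 for Snrpn (207). KO frontal cortex replicate 1 stood above the other 3 for Agt (10.5), Baiap3 (11.1), Lhx9 (1.59), Peg10 (56) and Zim1 (9.77). It stood below them for Egr3 (64.2), Homer1 (372), Lamp5 (133) and Slc6a13 (4.64). KO frontal cortex replicate 2 stood above the other 3 for Enpp2 (602), Etv1 (130.4), Gabrg3 (130.1) and Ttr (639). It stood below them for Meg3 (3824) and Plxnd1 (107). KO frontal cortex replicate 4 stood above the other 3 for Bhlhe22 (29.4), Dcn (15.2) and Robo3 (76.4). It stood below them for Kcna1 (189). WT frontal cortex replicate 1 stood above the other 3 for Chgb (654). It stood below them for Crb1 (0.77). WT frontal cortex replicate 2 stood above the other 3 for Enpp2 (368) and Ttr (236). It stood below them for Neurod1 (14.3). WT frontal cortex replicate 4 stood above the other 3 for Aldh1a2 (6.77), Calb2 (7.41), Dcn (18.2), Dlk1 (15) and Fmod (21.8).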

How the results depend on the processing

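Of the alternatives run, only the fits to WT libraries alone moved the number of genes called by more than 1.5 times. They gave 3620 at P30 and 2124 at P60. The fits to KO libraries alone gave 5179 and 4361. Both kinds of fit hold fewer samples than the main fits. At P30 each genotype had 4 libraries of each region, and the WT libraries include amygdala replicate 3. At P60 there were 4 KO and 3 WT libraries of each region. Leaving out each library in turn gave 6845 to 8145 genes at P30 and 5869 to 6647 at P60. The genes called and over 2-fold higher in the amygdala then numbered 336 to 429 at P30 and 397 to 484 at P60, those over 2-fold lower 338 to 409 and 276 to 344, and the interaction 0 genes throughout. Of 4541 values recomputed for 175 named genes, 4407 kept their direction and their side of the threshold, 126 no longer passed, 8 newly passed and 0 reversed; 44 of the 126 arose with WT libraries alone. Trimmed mean scaling ended the calls of Plxnd1 and Slc17a6; without the filter on low values Cck, Cpne5, Enpp2, Plxnd1 and Slc17a6 did not pass, and with hippocampus libraries in the fit Enpp2, Slc17a6, Slc17a7, Sox10 and Zic1 did not. The causes were not tested.

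Same-numbered amygdala and frontal cortex libraries of a genotype were tested for pairing by the correlation of their deviations from the group means. Over autosomal genes r was -0.062 to 0.137 in the 8 pairs at P30 and 0.073 to 0.195 in the 7 pairs at P60 (over 0.1 in 4 pairs at each age), and 5 of 8 and 6 of 7 correlated best with their own number. Over all genes r was -0.04 to 0.267 (over 0.1 in 5 of 8) and 0.133 to 0.252 (7 of 7), and the libraries of each pair matched in sex. The main fits did not take the numbers as pairs at either age. A replicate block gave 7285 genes at P30 and 6781 at P60 and ended the calls of Cck, Cpne5, Enpp2, Ppp1r1b, Sh3rf2, Slc17a6 and Sox10.

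The planned edgeR and DESeq2 alternatives were not run, although whole reads were recovered; limma-voom on those reads stood in for them. Genes under the read minimum were not tested, and bulk tissue does not separate neighbouring regions caught in a dissection.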

Other observations

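Imprinted genes, expressed from 1 parental copy, were looked up after Nnat and Dlk1 had been seen among the larger differences. Of 25 listed, 22 were tested, 20 were higher in the amygdala than in the frontal cortex at P30, and 1 was lower. The median log2 fold change was 0.85. In all 95.5% passed, against 42.3% of all genes (26.4% higher and 15.9% lower). The list was chosen because of genes already seen as higher, and none was taken out of the count for this reason. The count is therefore a description and no test. Magel2, of the Prader-Willi region, had a median of 12.7 normalised counts in the amygdala, against 1.66 in the frontal cortex (log2 fold change 2.33), and Zim1 had 29.1 in the amygdala, against 5.01 (2.23). Peg10 (1.43) and Zdbf2 (1.11) were higher, and the abundant non-coding RNA gene Meg3 was higher by less (0.39). Snrpn was the lower gene (-0.22). At P60, 20 of 22 were higher and 1 lower (median 0.71), and after trimmed mean scaling at P30 19 were higher and 1 lower. Calcr, H19 and Asb4 had too few reads.

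Copines, calcium-dependent membrane-binding proteins, were looked up after Cpne7 and Cpne9. Of 8 tested, Cpne7 (2.81), Cpne6 (1.63) and Cpne2 (1.37) were higher in the amygdala, and Cpne9 (-3.25) and Cpne5 (-0.48) lower. That is 62.5% of the 8, against 42.3% of all genes. Cpne7 and Cpne9 stay in this share, so it is a description and no test. Cpne5 no longer passed when KO amygdala replicate 1 or 4, WT amygdala replicate 1, 2 or 4, KO frontal cortex replicate 1, 3 or 4, or WT frontal cortex replicate 1, 2 or 4 was left out (adjusted p 0.0582 to 0.082, limma).

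Non-coding RNA genes near named transcription factor genes differed in the same direction as these. Gm37176 (-2.60) and Gm37593 (-2.51) lie 25876 and 9570 bases from Satb1 (-1.64) on chromosome 17, and Gm35842 lies 182133 bases from Nr2f2 on chromosome 7. These 3 pairs were chosen after their values were seen, and no test was made of neighbouring genes in general.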
